A study of Mus musculus with 15 samples.

Results

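The B cell antigen receptor and its surface coreceptors were followed here through 9 genes in mouse splenic B cells: Cd79a and Cd79b, which encode the signalling chains of the receptor, Cd22, Cd72 and Siglecg, which encode inhibitory receptors, Ptprc, which encodes the phosphatase CD45, Cd37 and Cd81, which encode tetraspanins, and Ms4a1, which encodes CD20. The genes were taken by name for their place in the receptor complex, and they are 9 of the 54838 genes in the count table. RNA was measured in 15 libraries, 3 in each of 5 groups, and the libraries of a group are lettered A, B and C. All cells came from wild-type male mice aged 3 months, 9 days after immunisation with sheep red blood cells (SRBC), an antigen that starts germinal centres in the spleen. Spleen cells were enriched for B220+ cells on magnets and sorted into naive B cells and germinal centre (GC) B cells, and the libraries named for these populations were read as uncultured. The 9 activated libraries came from naive B cells kept for 5 days in embryonic stem cell medium, which was renewed with its stimuli on day 3. The CD40 group received 80 ng/ml of mouse interleukin 4 (IL-4) and 5 µg/ml of antibody to CD40, the receptor for T cell help. The CpG group received 2 µM of CpG oligonucleotide, a ligand of Toll-like receptor 9, and the LPS group received 25 µg/ml of lipopolysaccharide, a ligand of Toll-like receptor 4. It is not clear from the labels if IL-4 was present with CpG or LPS, what the letters stand for or how the mice were pooled, so the p-values measure the spread between libraries, which may be technical. No cells cultured without a stimulus are analysed here, so culture and stimulus cannot be told apart.

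The B cell receptor is a membrane immunoglobulin that cannot signal by itself. CD79A and CD79B carry the tyrosine motifs that the kinases LYN and SYK phosphorylate and bind when antigen is engaged, and membrane immunoglobulin reaches the surface only in complex with them. CD22, CD72 and Siglec-G carry inhibitory motifs that recruit phosphatases such as SHP-1, and CD22 and Siglec-G bind sialic acids on the same cell or its neighbours. CD45 removes the inhibitory phosphate of Src-family kinases, CD81 is a tetraspanin found on many cell types, CD37 is a tetraspanin of leukocytes, and CD20 is a membrane protein of mature B cells that lies near the receptor. Plasma cells, the end stage of B cell differentiation, are known for losing CD20.

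Library totals ran from 25397624 to 36272197 counts, and each of the 9 genes had between 765 and 83522 counts in every library, so all 9 passed the filter on low counts. Genes with at least 1 count numbered 11523 in naive library B, 13920 in naive A and 18866 in naive C, against 16314 to 19320 in the GC and activated libraries. The sorted populations carried their markers: 8 naive follicular genes summed to 7261 to 9015 CPM in the naive libraries and 319 to 451 CPM in the GC libraries, and 8 GC genes summed to 82.6 to 132 CPM and 2837 to 3128 CPM. CPM is counts per 1000000 counts of the library, with library totals adjusted by trimmed mean of M values (TMM) factors. The defining T cell genes Cd3d, Cd3e, Cd3g, Cd4, Trac and Trbc2 together stayed at or below 11 CPM in every naive library, 1.56 CPM in GC and 2.71 CPM in the activated libraries. Thy1, which belongs to the wider T cell list, stood at 389.5 to 802 CPM in the activated libraries and at most 0.382 CPM elsewhere. Erythroid genes summed to 306 CPM in naive B, 29.2 CPM in naive A and 3.30 CPM in naive C, and their part in any difference between the naive libraries was not tested. Cd3e had no count in any naive or GC library, and Trbc2 none in any CD40 or LPS library. Cd8a, of the wider T cell list, had no count in any naive or GC library and measured 0.683 to 5.68 CPM in the activated libraries, with means of 2.29, 2.20 and 2.57 CPM for CD40, CpG and LPS (adjusted p = 0.00269, 0.00281 and 0.00245), each highest in library B. The whole list of 11 T cell genes summed to 182 to 292 CPM in naive libraries, 105 to 138 CPM in GC and 406 to 822 CPM in the activated libraries. Dendritic cell genes summed to 5.99 to 16.7, 45.7 to 49.4 and 69.1 to 249 CPM in naive, GC and activated libraries, and myeloid genes to 8.22 to 30.2, 10.3 to 16.5 and 26.8 to 48.0 CPM. NK cell, neutrophil and megakaryocyte genes summed to at most 26.2, 49.9 and 11.7 CPM in naive libraries, 0.892, 0.989 and 1.72 CPM in GC and 9.60, 0.929 and 9.23 CPM in the activated libraries. The part of other cells in the results was not tested. In bulk RNA, fewer cells of a kind and less RNA per cell cannot be told apart, and this holds for every level given here.

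The 9 genes lie at 9 separate places, 5 of them on chromosome 7, which holds 9.16% of the 21998 protein-coding genes in the table. To show the regulatory sequence beside the expression, the 250 bases before the RefSeq start site are printed for Cd79a, for the inhibitory receptors Cd22 and Cd72, and for Cd37, which all stood highest in naive B cells, and for Cd81, the one gene with its lowest mean there. Sequences are from RefSeq on GRCm38.p6, read 5′ to 3′ on the gene's strand. The capitals mark chosen matches, not all of them, on either strand, to the letters of factor motifs: CAAGGGA (EBF monomer site) and CAGGAAGT (ETS) in Cd79a, the EBF palindrome in Cd22, AGAGGAAG (PU.1-type ETS, here in its reverse complement) in Cd72 and Cd37, and GGGCGG (GC box) in Cd37 and Cd81.
Cd79a, chr7:24897247-24897496, plus strand: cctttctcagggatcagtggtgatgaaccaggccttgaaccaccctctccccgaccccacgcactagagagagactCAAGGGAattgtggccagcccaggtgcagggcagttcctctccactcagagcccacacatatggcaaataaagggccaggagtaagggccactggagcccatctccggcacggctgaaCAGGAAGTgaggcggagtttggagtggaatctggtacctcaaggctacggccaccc
Cd22, chr7:30879029-30879278, minus strand: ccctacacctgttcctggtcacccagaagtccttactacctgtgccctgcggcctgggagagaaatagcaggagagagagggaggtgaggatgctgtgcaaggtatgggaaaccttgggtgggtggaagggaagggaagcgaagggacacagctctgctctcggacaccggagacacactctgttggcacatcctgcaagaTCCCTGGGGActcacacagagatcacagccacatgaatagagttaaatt
Cd72, chr4:43454627-43454876, minus strand: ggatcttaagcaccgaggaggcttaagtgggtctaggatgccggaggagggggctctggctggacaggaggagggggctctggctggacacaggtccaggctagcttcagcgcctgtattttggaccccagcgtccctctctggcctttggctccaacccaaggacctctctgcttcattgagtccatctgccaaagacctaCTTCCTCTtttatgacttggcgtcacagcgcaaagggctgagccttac
Cd37, chr7:45238840-45239089, minus strand: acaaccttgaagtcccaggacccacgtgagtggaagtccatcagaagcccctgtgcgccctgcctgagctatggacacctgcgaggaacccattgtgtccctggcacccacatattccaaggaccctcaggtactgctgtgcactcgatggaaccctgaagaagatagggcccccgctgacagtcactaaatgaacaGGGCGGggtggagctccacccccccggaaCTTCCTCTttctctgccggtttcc
Cd81, chr7:143052500-143052749, plus strand: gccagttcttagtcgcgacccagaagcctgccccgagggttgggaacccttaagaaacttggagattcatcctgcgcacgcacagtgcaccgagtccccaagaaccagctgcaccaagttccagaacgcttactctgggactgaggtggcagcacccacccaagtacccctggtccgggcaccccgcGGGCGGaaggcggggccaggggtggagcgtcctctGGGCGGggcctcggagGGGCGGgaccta
Of the 9 genes, 7 had an entry among the 32851 promoters of the table, and Cd79b and Ms4a1 did not. The EBF palindrome was found in 0.904% of all promoters of that table, each 250 bases before and 50 after a start, and at base -49 of Cd22. The EBF monomer site was in 5.06% of promoters and began at -174 of Cd79a, and the ETS letters were in 3.33% and began at -56 of Cd79a and -58 of one Ptprc start. PU.1-type letters were in 4.55% of promoters and began at -48 of Cd72 and -24 of Cd37. GC boxes were in 35.7% of promoters, with 3 in Cd81, at -63, -28 and -12, and 1 in Cd37 at -53. No octamer (ATGCAAAT, in 1.74% of promoters) was in any of the 7, and neither Siglecg start held any of the 13 motifs searched. The Cd81 promoter was 65.7% G and C, those of Cd79a, Cd72 and Cd37 were 58.3%, 57.7% and 57.7%, and the median of all promoters was 52.7%. Each match describes the letters only, and says nothing of a factor bound there.

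Naive B cells had the highest level of 7 of the 9 genes. Against naive cells, 5 of the 9 fell in GC B cells, namely Cd79a, Cd22, Siglecg, Ptprc and Cd37, and none rose. In the cultured cells more of the set was called: with each of the 3 stimuli 8 genes fell and Cd81 rose. The falls of Cd79b and Ms4a1 with each stimulus, and of Cd72 with LPS, were lost in at least 1 alternative fit. A gene is said to rise or fall where its Benjamini-Hochberg adjusted p, over all 17144 genes tested with edgeR's quasi-likelihood test, was 0.05 or less. By that rule 34.5% of all genes changed in GC against naive (16.5% lower and 17.9% higher), 34.1% in CD40 (14.3% lower and 19.8% higher), 33.6% in CpG (14% and 19.7%) and 33.7% in LPS (14.2% and 19.5%). The median log2 fold change of the 9 genes was -0.87 in GC, -1.59 in CD40, -1.53 in CpG and -1.61 in LPS, and the median of all genes was 0.00, 0.17, 0.18 and 0.18. The libraries of the 2 groups did not overlap for 8 of the 9 genes in GC against naive, and for 43.7% of all genes. They did not overlap for any of the 9 in the activated groups, where the shares of all genes were 41.5%, 43.5% and 43.7%. All 4 comparisons use the same 3 naive libraries, so they are not independent of each other.

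**Figure D1:**
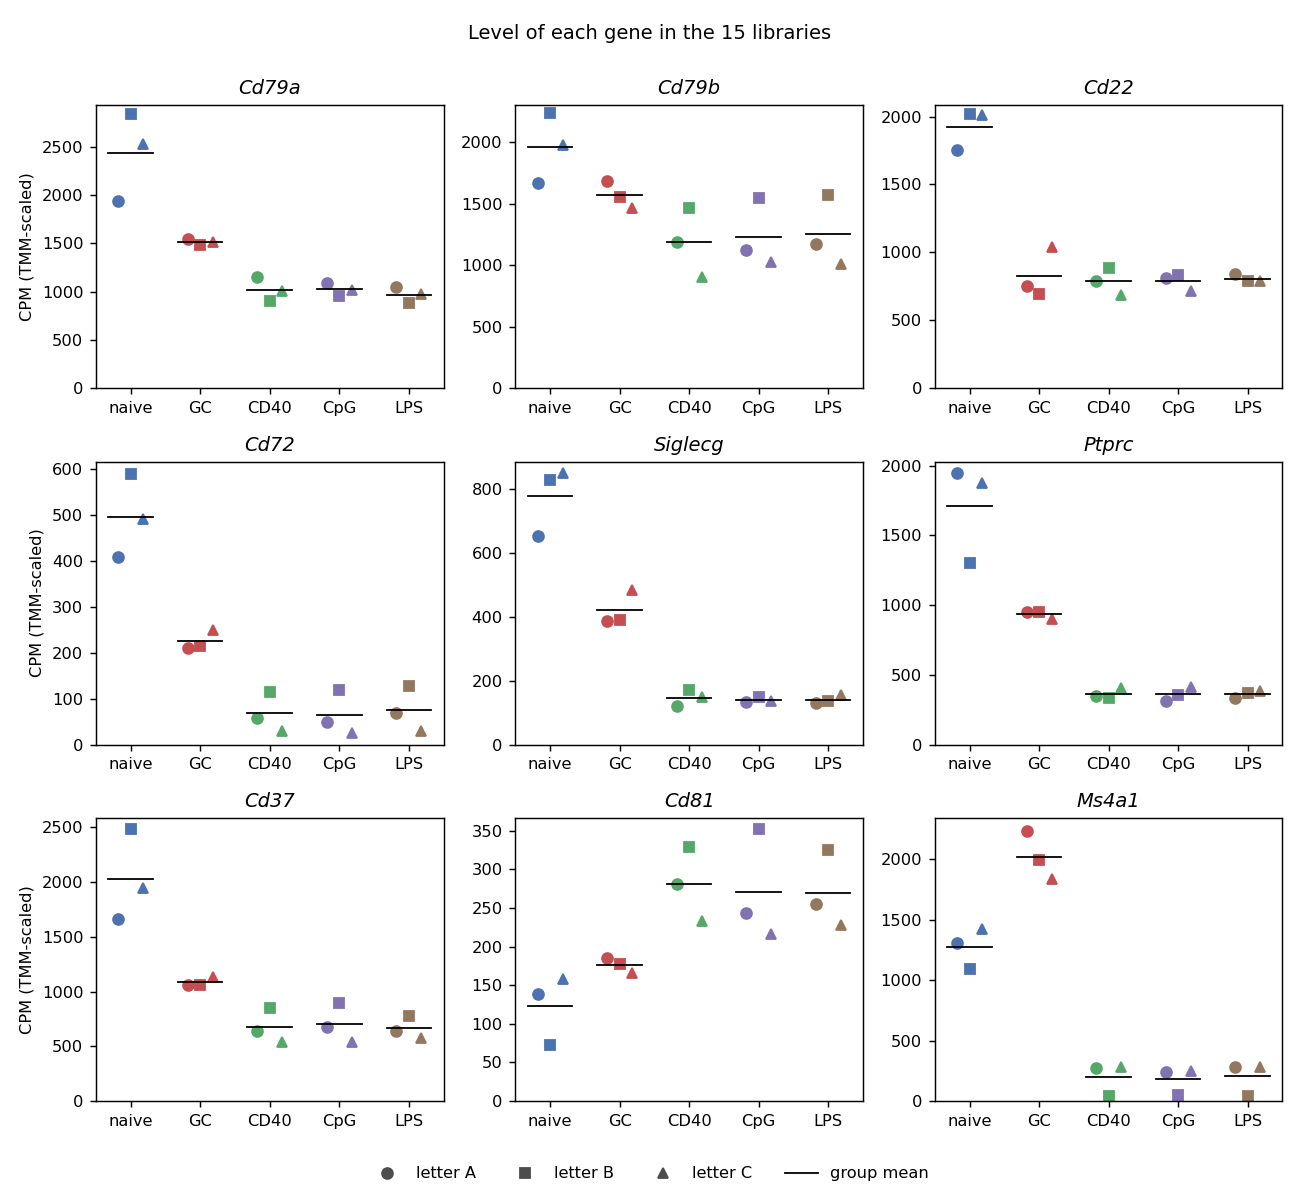
Each panel shows 1 gene in the 15 libraries, as TMM-scaled CPM on an axis that starts at 0. Circles, squares and triangles are the libraries lettered A, B and C, and the lines are means of the 3 libraries of a group. Cd81 has its lowest mean in naive B cells, Ms4a1 its highest in GC B cells, and the other 7 genes their highest in naive B cells.

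Cd79a (ENSMUSG00000003379, chr7:24897381-24902197 on GRCm38, plus strand) encodes Igα, 1 of the paired signalling chains. It measured 1940, 2839 and 2528 CPM in naive libraries A, B and C and 1541, 1486 and 1510 CPM in GC libraries A, B and C. All 3 naive libraries lay above all 3 GC libraries, which lay close together (SD 27.7 CPM). The fall in GC was -0.69 log2 (SE 0.16, adjusted p = 0.00433). The activated libraries measured 1155, 902 and 1006 CPM with CD40, 1094, 957 and 1015 CPM with CpG and 1045, 884 and 971 CPM with LPS, below every GC library. Against naive these were falls of -1.25 (SE 0.16, adjusted p = 4.44e-05), -1.25 (SE 0.16, adjusted p = 4.59e-05) and -1.33 log2 (SE 0.17, adjusted p = 2.58e-05).

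Cd79b (ENSMUSG00000040592, chr11:106311341-106314762, minus strand) encodes Igβ, the partner chain, and moved less than Cd79a. Its naive libraries measured 1664, 2236 and 1977 CPM and its GC libraries 1686, 1557 and 1462 CPM. GC library A lay above naive library A, so the groups overlapped, and the difference of -0.32 log2 (SE 0.22, adjusted p = 0.289) did not pass the test. The activated libraries measured 1188, 1464 and 907 CPM with CD40, 1126, 1545 and 1021 CPM with CpG and 1174, 1566 and 1010 CPM with LPS. Library B of each stimulus was the highest, and the highest of all, 1566 CPM, was still below the lowest naive library. The falls of -0.72 (SE 0.22, adjusted p = 0.0212), -0.67 (SE 0.22, adjusted p = 0.0312) and -0.65 log2 (SE 0.22, adjusted p = 0.0358) rested on few libraries. They did not pass the test with only the 6 libraries compared (adjusted p = 0.0951, 0.0976 and 0.107), nor without library C of the activated group (0.146, 0.193 and 0.207), without its library A (0.0872, 0.158 and 0.154), without naive B (0.0516, 0.0748 and 0.0845) or without naive C (0.0529, 0.0753 and 0.0807).

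Because the signalling chains form a pair, their ratio was taken within each library, where scaling plays no part. Cd79a counts per Cd79b count were 1.17, 1.27 and 1.28 in naive libraries A, B and C, and 0.914, 0.955 and 1.03 in the GC libraries. With CD40 they were 0.972, 0.616 and 1.11, with CpG 0.972, 0.619 and 0.994, and with LPS 0.890, 0.565 and 0.961. The GC and activated libraries were all below the 3 naive libraries, and the B library of each stimulus was the lowest of its group. On the log2 scale the mean was 0.31 ± 0.07 (SD, n = 3) in naive, -0.05 ± 0.09 in GC, -0.20 ± 0.45 with CD40, -0.25 ± 0.39 with CpG and -0.35 ± 0.41 with LPS. Each difference from naive had an exact two-sided permutation p of 0.1, which is the smallest that 3 against 3 libraries can give, and 0.1 after adjustment over 8 such tests. Without library B of the activated group the differences from naive shrank from -0.50 to -0.25 (CD40), from -0.55 to -0.33 (CpG) and from -0.66 to -0.42 (LPS).

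The immunoglobulin chains that Cd79a and Cd79b carry were described from a list of 12 genes. Against naive, 5 rose and 1 fell in GC, and 3 rose and 1 fell with each stimulus. With only the naive and GC libraries fitted 8 rose and 3 fell in GC, without the 3 activated libraries of letter C 7 rose and 3 fell in GC, and without them 3 rose and 4 fell with LPS. The median log2 fold changes were 2.34 in GC, 1.14 with CD40, 1.33 with CpG and 0.95 with LPS. The shares of all genes called were 34.5% in GC and 34.1%, 33.6% and 33.7% with CD40, CpG and LPS. Ighd, the heavy chain of IgD, a mark of mature naive B cells, was the gene that fell: it measured 3437, 2962 and 4282 CPM in naive libraries, 35.7 to 38.8 CPM in GC and 96.6 to 212 CPM in the activated libraries. Those were changes of -6.60 log2 in GC (adjusted p = 1.39e-08) and -4.39, -4.35 and -4.53 log2 with CD40, CpG and LPS (adjusted p = 3.79e-07, 4.31e-07 and 2.98e-07). Ighg1, the IgG1 heavy chain, rose by 5.18 log2 in GC and by 7.19, 7.18 and 6.98 log2 in the activated groups. Ighe, the IgE heavy chain, had no count in any naive library. Its mean was 17.2 CPM in GC and 1643, 1818 and 1662 CPM with CD40, CpG and LPS. Those were 543-, 51830-, 57360- and 52420-fold the level of 3 counts over the naive group. Naive libraries A and B held only 816 and 606 values from 1 to 20, against 5938 in naive C. The absence of counts there may not bound the level, so these folds are no lower limits. The activated B libraries held 204 to 227 CPM of Ighe and the activated A and C libraries 2066 to 2738 CPM. Ighm, the IgM heavy chain, did not pass the test (-0.84 log2 in GC and 1.00, 1.18 and 0.47 in the activated groups), and neither did Igkc, the kappa chain (0.67, 1.30, 1.47 and 0.98). Igha rose in all 4 comparisons, by 4.32, 3.52, 3.25 and 3.06 log2. Ighg2b rose in GC (5.04 log2), as did Ighg2c (7.93 log2), and neither passed the test with a stimulus. Ighg3 and the lambda chains Iglc1, Iglc2 and Iglc3 passed in none of the 4 comparisons. The constant regions of the IgG heavy chains are close in sequence, and the handling of reads that map to several of them is not given in the sources used here.

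Cd22 (ENSMUSG00000030577, chr7:30865402-30880342, minus strand) encodes a Siglec that binds α2,6-linked sialic acid and dampens receptor signalling. The naive libraries measured 1751, 2019 and 2010 CPM, and the GC libraries 749, 689.5 and 1037 CPM. No GC library reached the lowest naive library, and the fall was -1.22 log2 (SE 0.17, adjusted p = 6.14e-05). The activated libraries stood at the GC level, with 789, 883 and 687 CPM for CD40, 812, 831 and 713 CPM for CpG and 842, 785 and 788 CPM for LPS. Against naive they fell by 1.29 (CD40), 1.29 (CpG) and 1.26 log2 (LPS), with an SE of 0.17 each and adjusted p of 4.62e-05, 4.65e-05 and 5.78e-05. Against GC the differences were -0.07, -0.07 and -0.04 log2 (SE 0.17; adjusted p = 0.815, 0.810 and 0.913), with libraries that overlapped. Without GC library C, the highest of its group, these differences turned to 0.082, 0.091 and 0.12 log2 and did not pass the test either. Cd22 shares 9.5% of its exonic bases with an antisense gene, Gm29439, which had no count in any library.

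Siglecg (ENSMUSG00000030468, chr7:43408204-43418358, plus strand) encodes Siglec-G, another sialic acid receptor, known for its inhibitory part in B-1 cells. Its naive libraries measured 653, 831 and 851 CPM, its GC libraries 389, 391 and 483 CPM, and its activated libraries 120.3, 172 and 148 CPM with CD40, 134, 149 and 137 CPM with CpG and 129, 136 and 154 CPM with LPS. The 3 kinds of cell formed 3 separate levels with no overlap, naive above GC above activated. The fall was -0.89 log2 in GC (SE 0.16, adjusted p = 0.00062) and -2.41, -2.48 and -2.48 log2 with CD40, CpG and LPS (SE 0.17 each; adjusted p = 1.32e-07, 1.11e-07 and 1.07e-07). Activated cells were also below GC cells, by -1.52, -1.59 and -1.59 log2 (adjusted p = 8.61e-06, 5.86e-06 and 5.64e-06). These calls were the same in every alternative fit that was tried.

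Cd72 (ENSMUSG00000028459, chr4:43446462-43454628, minus strand) encodes an inhibitory C-type lectin. It measured 409, 589 and 491 CPM in naive libraries and 211, 215 and 249 CPM in GC libraries, with no overlap. The difference of -1.14 log2 (SE 0.61) did not pass the test in the fit of all 15 libraries (adjusted p = 0.172). It passed with only the 6 naive and GC libraries (-1.06 log2, adjusted p = 0.00384), and when the 3 activated libraries of letter B (adjusted p = 0.0312) or of letter C (adjusted p = 0.0492) were left out. The activated libraries spread widely, with 58.1, 115 and 29.6 CPM for CD40, 48.6, 119 and 24.8 CPM for CpG and 68.5, 127 and 30.2 CPM for LPS. In each stimulus B was the highest library and C the lowest, and all 9 were below every GC library. The falls against naive were -2.87 (SE 0.65, adjusted p = 0.0045), -2.95 (SE 0.65, adjusted p = 0.00394) and -2.72 log2 (SE 0.64, adjusted p = 0.00596), and the last was lost without the 3 activated libraries of letter A (adjusted p = 0.0517). The exons of Cd72 share 1423 bases, 41.6% of their length, with Tesk1 on the opposite strand. Tesk1 had at most 869 counts in a library and 4.05 to 27.3 CPM, and how reads of that stretch were assigned is not given in the sources used here.

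Counts of the 3 inhibitory receptors per count of the 2 signalling chains, (Cd22 + Cd72 + Siglecg) over (Cd79a + Cd79b), were 0.781, 0.678 and 0.744 in naive libraries A, B and C. They were 0.418, 0.426 and 0.595 in the GC libraries, 0.413, 0.495 and 0.452 for CD40, 0.448, 0.439 and 0.430 for CpG, and 0.469, 0.428 and 0.491 for LPS. The lowest naive library was above the highest of the other 4 groups, which was GC library C. The log2 means were -0.45 ± 0.10 (SD, n = 3) in naive, -1.08 ± 0.29 in GC, -1.15 ± 0.13 with CD40, -1.19 ± 0.03 with CpG and -1.12 ± 0.10 with LPS. The exact two-sided permutation p was 0.1 for each group against naive, again the smallest possible here, and 0.1 after adjustment over the same 8 tests. In the naive libraries the summed inhibitory counts stood higher against the summed signalling counts than in the GC or cultured libraries. The log2 mean there was lower by -0.63 (GC), -0.70 (CD40), -0.74 (CpG) and -0.67 (LPS). Cd22 had the most counts of the 3 inhibitory genes in every library and so weighs most in this ratio. In naive A it had 63713 counts, against 14896 for Cd72 and 23769 for Siglecg, and in CD40 A 25415, against 1872 and 3878.

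**Figure D2:**
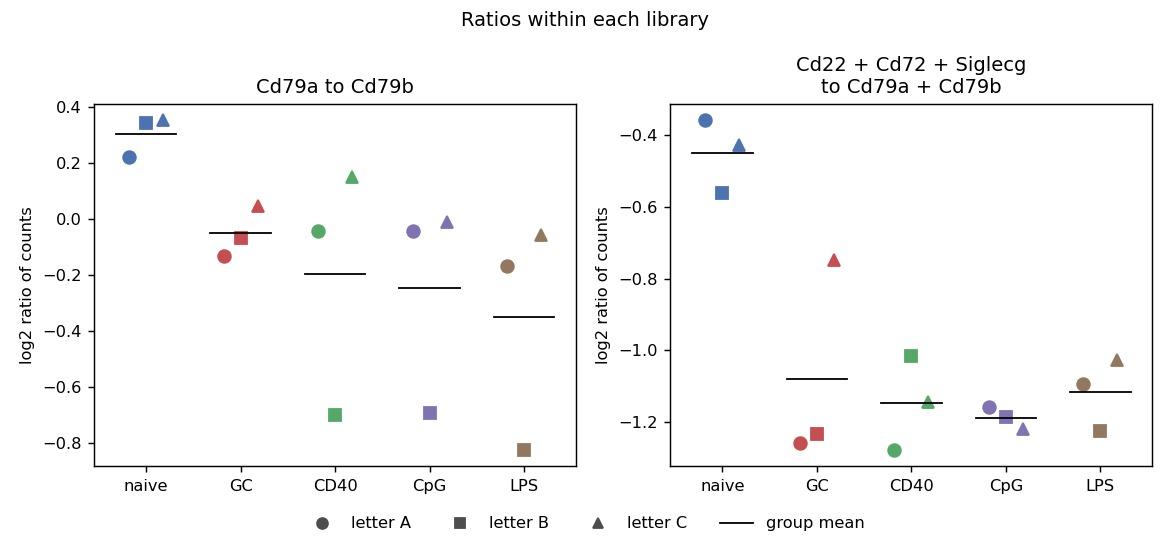
The left panel shows the log2 ratio of Cd79a to Cd79b counts in each of the 15 libraries, and the right panel the log2 ratio of summed Cd22, Cd72 and Siglecg counts to summed Cd79a and Cd79b counts. Markers are libraries by letter and lines are group means. In both panels the 3 naive libraries lie above all others, and in the left panel the activated libraries of letter B lie lowest, at -0.70, -0.69 and -0.82.

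Genes that make or edit the ligands of these receptors, or work with a member, formed a list of 14, of which 4 rose and 2 fell in GC, and 4 rose and 5 fell with each stimulus. Over all genes 34.5% were called in GC and 34.1%, 33.6% and 33.7% with CD40, CpG and LPS. The GC count is therefore not read as a result about the list. St6gal1, which adds the α2,6-linked sialic acid that CD22 binds, measured 379.8, 335 and 374 CPM in naive libraries and 435, 448 and 373 CPM in GC libraries (0.21 log2, adjusted p = 0.381). It measured 859.8, 692 and 871 CPM with CD40, 672 to 945 CPM with CpG and 646 to 899 CPM with LPS, above every naive and GC library. The rises were 1.15, 1.21 and 1.10 log2 (adjusted p = 0.000147, 0.000102 and 0.000223). Cmah, which turns N-acetyl- into N-glycolylneuraminic acid, the form of sialic acid that mouse CD22 prefers, fell from 448, 202 and 429 CPM in naive libraries to 37.8, 36.8 and 34.3 CPM in GC (-3.31 log2, adjusted p = 7.46e-05). In the activated libraries it measured 58.9 to 167 CPM, changes of -1.72, -1.59 and -1.79 log2 (adjusted p = 0.00664, 0.0103 and 0.00534). Nans, a synthase of sialic acid, rose by 1.62 log2 in GC and by 1.47, 1.48 and 1.35 log2 in the activated groups (adjusted p = 2.77e-05, 8.02e-05, 7.65e-05 and 0.000169).

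Ptprc (ENSMUSG00000026395, chr1:138062861-138175708, minus strand) encodes CD45, whose long form B220 was used to enrich the cells. Naive libraries measured 1949, 1304 and 1880 CPM and GC libraries 954, 948 and 903 CPM. The naive library B was the lowest of its group, and still above every GC library. The activated libraries measured 347, 333 and 406 CPM with CD40, 315, 358 and 411 CPM with CpG and 336, 369 and 382 CPM with LPS, below every GC library. The changes against naive were -0.87 log2 in GC (SE 0.17, adjusted p = 0.000981) and -2.24 log2 with each of CD40, CpG and LPS (SE 0.17; adjusted p = 3.57e-07, 3.64e-07 and 3.48e-07). Against GC the activated groups were lower by -1.37 log2 each (adjusted p = 3.13e-05, 3.06e-05 and 3.22e-05), and all these calls held in every alternative fit tried. The counts are per gene and do not separate the CD45 isoforms. Hnrnpll, a splicing factor known to favour the short isoforms in activated lymphocytes, had no count in naive libraries. Its mean was 0.451 CPM in GC and 15.3, 14.9 and 16.1 CPM with CD40, CpG and LPS. Those were 14.2-, 484-, 471- and 509-fold the level of 3 counts over the naive group. As for Ighe, these folds are no lower limits, since naive libraries A and B held few low counts.

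A gene of unknown coding status, A130071D04Rik, is annotated inside a Ptprc intron on the same strand and shares no exonic base with it. Its counts were 3.73%, 17.1% and 2.16% of the Ptprc counts in naive libraries A, B and C, 4.80%, 2.42% and 7.46% in GC libraries and 0.344% to 1.81% in the activated libraries. The naive library with the highest share, B, was the one with the lowest Ptprc level and the fewest genes detected. The part of unspliced RNA in these libraries was not tested.

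Cd37 (ENSMUSG00000030798, chr7:45233632-45239115, minus strand) encodes a tetraspanin of mature B cells. Its naive libraries measured 1662, 2488 and 1949 CPM and its GC libraries 1058, 1064 and 1129 CPM, with no overlap and a fall of -0.91 log2 (SE 0.22, adjusted p = 0.00525). The activated libraries measured 639, 852 and 539 CPM with CD40, 680.1, 894 and 541 CPM with CpG and 639, 779 and 578 CPM with LPS. All 9 were below the GC libraries, and in each stimulus B was highest and C lowest. The falls against naive were -1.59, -1.53 and -1.61 log2 (SE 0.23, 0.22 and 0.23; adjusted p = 8.82e-05, 0.000125 and 7.78e-05). Against GC they were -0.68, -0.62 and -0.70 log2 (adjusted p = 0.0322, 0.0478 and 0.0275), calls that were lost without any 1 of the GC libraries (adjusted p up to 0.0746, 0.109 and 0.0667) and without library A or C of the activated group (0.0879 and 0.115 for CD40, 0.118 and 0.175 for CpG, 0.0753 and 0.0931 for LPS).

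Cd81 (ENSMUSG00000037706, chr7:143052739-143067934, plus strand) encodes a widely expressed tetraspanin, and it was the one member of the set that rose in culture. The naive libraries measured 139, 72.2 and 158 CPM, with library B the lowest, and the GC libraries 186, 177 and 166 CPM. The groups did not overlap, and the difference of 0.52 log2 (SE 0.26) did not pass the test (adjusted p = 0.135). It passed without naive library C (0.81 log2, adjusted p = 0.0407) and was smallest without naive B (0.25 log2, adjusted p = 0.380). The activated libraries measured 281, 328 and 233 CPM with CD40, 243, 352 and 217 CPM with CpG and 256, 326 and 228 CPM with LPS, all above the GC libraries. The rises against naive were 1.19 (SE 0.26, adjusted p = 0.00272), 1.14 (SE 0.26, adjusted p = 0.00372) and 1.13 log2 (SE 0.26, adjusted p = 0.00376). Against GC the differences of 0.67, 0.62 and 0.61 log2 did not pass (adjusted p = 0.0659, 0.0892 and 0.0936), and they passed with only the 6 libraries compared (0.71, 0.65 and 0.63 log2; adjusted p = 0.00434, 0.0185 and 0.00708).

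Cr2 encodes a complement receptor of the B cell surface. Cr2 fell from 893, 503 and 1108 CPM in naive libraries to 202 to 319.9 CPM in GC (-1.74 log2, adjusted p = 0.0011) and to 1.62 to 6.31 CPM in the activated libraries (-7.62, -7.28 and -8.03 log2; adjusted p = 3.18e-08, 4.14e-08 and 2.54e-08). Of 15 other tetraspanin genes, none rose and 6 fell in GC, while 6, 6 and 5 rose and 2 fell with CD40, CpG and LPS. The calls in culture depended on the libraries: of 8 with CD40 and 8 with CpG, 4 were made with only the 6 libraries compared (2 higher and 2 lower each), and 5 without library B of the group (4 higher and 1 lower each). Without all activated libraries of letter B 4, 3 and 4 were made with CD40, CpG and LPS, and without letter A 4 and 5 with CD40 and CpG. Their median log2 fold changes were -0.53, 1.23, 1.37 and 1.34. Of all genes, 34.5% were called in GC (16.5% lower) and 34.1%, 33.6% and 33.7% with CD40, CpG and LPS. The GC count of tetraspanins called is therefore not read as a result about them. Tspan32 fell, as Cd37 did, from 191, 248 and 227 CPM in naive libraries to 22.5 to 29.4 CPM in GC (-3.09 log2, adjusted p = 2.84e-09) and 64.5 to 78.0 CPM in the activated libraries (-1.62, -1.65 and -1.64 log2). Tspan17 fell by 6.29 log2 in GC and by 2.64, 2.55 and 2.83 log2 in the activated groups. Its levels were low, with 8.30 to 16.9 CPM in naive, 0 to 0.318 CPM in GC and 0.730 to 2.57 CPM in activated libraries. The size of its fall in GC thus rests on few counts. Tspan3 fell in GC (-3.57 log2), and its positive values in culture did not pass the test. Cd63 was called lower in GC, where it had no count, against 0, 7.21 and 0.486 CPM in naive libraries A, B and C, so that its level in naive cells rests on library B.

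Ms4a1 (ENSMUSG00000024673, chr19:11249675-11266241, minus strand) encodes CD20, the surface protein used to mark B cells from the pre-B stage until plasma cell differentiation. It was the one gene of the 9 whose mean was highest in GC B cells: the naive libraries measured 1309, 1091 and 1427 CPM and the GC libraries 2231, 1990 and 1839 CPM, with no overlap. In the fit of all 15 libraries the difference of 0.66 log2 (SE 0.75) did not pass the test (adjusted p = 0.542). With only the 6 libraries of these groups it was 0.75 log2 and passed (adjusted p = 0.0145), and it also passed without the 3 activated libraries of letter B (0.66 log2, adjusted p = 0.00421). Those 3 libraries stood apart: Ms4a1 measured 277, 41.3 and 284 CPM in CD40 libraries A, B and C, 236, 52.3 and 247 CPM with CpG and 285, 44.0 and 281 CPM with LPS. All 9 activated libraries were below all naive and GC libraries. Against naive the falls were -2.67 (SE 0.80, adjusted p = 0.0218), -2.84 (SE 0.80, adjusted p = 0.0169) and -2.65 log2 (SE 0.80, adjusted p = 0.0225). Without library B of the group they were -2.14, -2.33 and -2.11 log2 and did not pass (adjusted p = 0.0587, 0.0634 and 0.0645), nor did they with all 3 activated libraries of letter A left out (0.072, 0.0645 and 0.0713) or of letter C (0.0561, 0.0501 and 0.0586). Against GC the differences were -3.33, -3.50 and -3.31 log2 (adjusted p = 0.00904, 0.00705 and 0.00942), calls that held in every alternative fit.

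**Figure D3:**
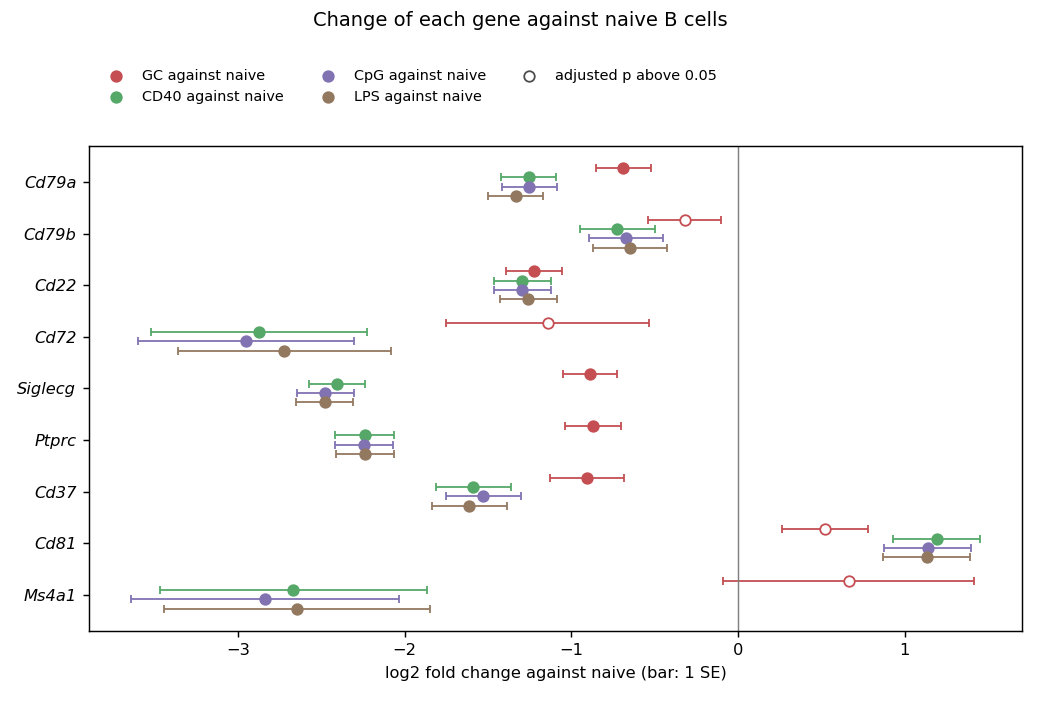
Points are log2 fold changes against naive B cells for each gene in GC, CD40, CpG and LPS, and bars are 1 SE from the fit of 15 libraries. Filled points passed the test and open points did not. Cd81 lies to the right of 0 in all 4 comparisons, Ms4a1 lies on both sides, and the widest bars belong to Ms4a1 and Cd72.

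Set against GC B cells, the cultured cells had lower levels of most of the set. With CD40, 5 of the 9 genes were lower and none was higher (28.4% of all genes were called, 12.4% lower and 15.9% higher). With CpG 6 were lower (28.9% of all genes, 12.6% lower and 16.4% higher) and with LPS 5 (28.1%, 12.2% lower and 15.8% higher). Cd79a, Ptprc, Siglecg, Cd37 and Ms4a1 were lower with each stimulus, Cd79a by -0.57 log2 with CD40 (adjusted p = 0.0169), -0.57 with CpG (adjusted p = 0.0170) and -0.65 with LPS (adjusted p = 0.00805). The Cd79a calls with CD40 and CpG were lost without the 3 activated libraries of letter B (adjusted p = 0.083 and 0.0651) or letter C (0.0592 and 0.0604), and that with CpG also without letter A (0.0632). Cd72 was the further gene with CpG, at -1.81 log2 (adjusted p = 0.0456), beside -1.73 with CD40 (adjusted p = 0.0544) and -1.58 with LPS (adjusted p = 0.0766). The Cd72 call with CpG was lost without any 1 of the GC libraries (adjusted p = 0.0899, 0.0889 and 0.106), without CpG A (0.150) or without CpG C (0.137). Without library B of the activated group Cd72 passed with CD40 (-2.41 log2, adjusted p = 0.0304) and with LPS (-2.23 log2, adjusted p = 0.0442). Cd79b differed from GC by -0.40, -0.35 and -0.33 log2 and did not pass (adjusted p = 0.201, 0.275 and 0.313), with overlapping libraries. The median log2 fold change of the 9 genes was -0.68, -0.62 and -0.70 against 0.05, 0.05 and 0.06 for all genes.

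The 3 stimuli were compared with each other next. None of the 9 genes differed between CD40, CpG and LPS in the fit of 15 libraries (edgeR quasi-likelihood F test, adjusted p = 1 for each, unadjusted p of 0.855 or more), where 0 of 17144 genes were called and 63 had an unadjusted p under 0.05. DESeq2 called 15 genes (234 unadjusted) and none of the 9. Libraries with the same letter deviated together among the activated groups, with correlations of 0.36 to 0.50 in the 9 pairs, so the comparison was also made within letters. With that replicate block 79 of 15727 genes were called (1315 unadjusted) and again none of the 9. The lowest p was that of Cd72 (0.00962, adjusted p = 0.377). Cd72 measured 0.29 log2 higher with LPS than with CpG (95% interval 0.11 to 0.46, adjusted p = 0.288), and LPS was above CpG in all 3 letters. Over the 9 genes and the 3 pairs of stimuli, the 95% intervals lay between -0.32 and 0.46 log2. For Ptprc they lay between -0.13 and 0.13, for Cd22 between -0.12 and 0.17, for Cd79a between -0.19 and 0.12 and for Ms4a1 between -0.22 and 0.26 log2. An interval of this kind bounds the difference and does not show that the stimuli acted alike.

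The letter of the library separated the activated cells more than the stimulus. All 9 genes differed between letters A, B and C once the stimulus was allowed for (edgeR, 9 libraries, 15727 genes tested), and 44% of all genes did. The test takes the 3 libraries of a letter as independent. If they share a source, its p-values and the SDs by letter measure only the agreement within that source. The letter took 53.9% (Siglecg) to 99.0% (Ms4a1) of the variance of log2 CPM among the 9 libraries, with a median over 15730 genes of 57.9%. The stimulus took 0.0549% (Ms4a1) to 9.82% (Cd79a). In 5 of the 9 genes the letter took over 90% of the variance, as it did in 13.1% of all genes, and these were Cd79b, Cd72, Cd81, Cd37 and Ms4a1.

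Ms4a1 had the widest spread: its mean over the 3 stimuli was 266 ± 26.2 CPM in letter A, 45.9 ± 5.74 in letter B and 271 ± 20.5 in letter C (SD, n = 3), so the highest letter was 5.90 times the lowest (adjusted p = 1.56e-15). Cd72 ran the other way, with means of 58.4 ± 9.94, 121 ± 6.11 and 28.2 ± 2.95 CPM for A, B and C, a 4.27-fold range (adjusted p = 1.4e-15). The B libraries were lowest for CD20 and highest for the lectin CD72, in all 3 stimuli. Cd79b followed Cd72 in order, with 1163, 1525 and 979.5 CPM in A, B and C (1.56-fold, adjusted p = 1.93e-09). So did Cd37, with 653, 842 and 553 CPM (1.52-fold, adjusted p = 1.43e-08), and Cd81, with 259.8, 335 and 226 CPM (1.49-fold, adjusted p = 7.81e-08). For Cd72, Cd79b, Cd37 and Cd81, and for Cd79a in another order, the 3 letters did not overlap, which was so for 12.0% of all genes. Cd79a was highest in A (1098, 914 and 997 CPM, 1.20-fold, adjusted p = 0.000825), and Ptprc in C (333, 353 and 399.7 CPM, 1.20-fold, adjusted p = 0.00212). Cd22 (1.14-fold, adjusted p = 0.0254) and Siglecg (1.19-fold, adjusted p = 0.0223) differed least. Their calls were lost without CD40 library B (adjusted p = 0.105 and 0.0876), and also, for Cd22, without CD40 C (0.260), CpG B (0.0549) or CpG C (0.0916) and, for Siglecg, without CD40 A (0.335) or LPS A (0.0503). Letter B was the highest for 6 of the 9 genes and letter C the lowest for 5. The matching shares over all genes were not taken, so these counts only describe the 9. Over all genes the median fold of the highest over the lowest letter was 1.42, and 24.9% of genes had a fold of 2 or more, as Cd72 and Ms4a1 did.

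**Figure D4:**
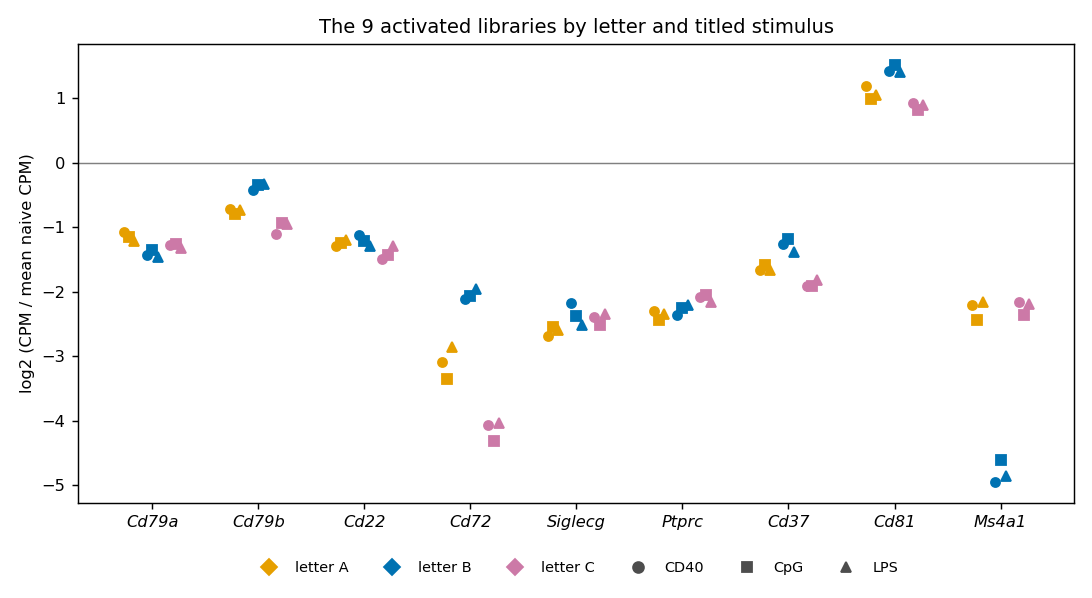
Each point is 1 of the 9 activated libraries, as log2 of its CPM over the naive mean CPM. Colours are letters and shapes are stimuli. For Cd72, Cd79b, Cd37 and Cd81 letter B is highest and letter C lowest, for Ms4a1 the 3 libraries of letter B lie near -4.80 (their mean) and those of A and C near -2.26 and -2.24, and the 3 stimuli of a letter lie together.

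Markers of plasma cells moved with the letter as well. The summed level of 10 plasma cell genes was 3517 to 3626 CPM in the A libraries, 2369 to 2482 CPM in B and 5523 to 7470 CPM in C, 597 to 645 CPM in naive libraries and 2309 to 2829 CPM in GC libraries. Prdm1, the master regulator of plasma cells, averaged 10.2, 3.66 and 71.7 CPM in A, B and C, and Jchain, which joins secreted IgM and IgA, 89.8, 17.9 and 2172 CPM. Xbp1, of the same list, averaged 1331, 830 and 1422 CPM, and with LPS it was higher in A (1380 CPM) than in C (1345 CPM). The excess of C over A in the sum was thus not shared evenly by the list. Ighm averaged 3897, 3726 and 23850 CPM and Igkc 4689, 3111 and 18200 CPM, so the C libraries held most immunoglobulin RNA. The C libraries had the least Cd72, Cd37, Cd79b and Cd81, whereas their Ms4a1 was as high as in A (271 against 266 CPM). Cd22 had its lowest mean in C, but with LPS library B (784.8 CPM) was below library C (788 CPM). Ms4a1 was lowest in the B libraries, which had the lowest plasma cell sum. The part of plasma cell differentiation in these letter differences was not tested.

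Levels of different genes were compared per kilobase of exonic length in the annotation (CPM per kb). In naive cells Cd79a (1672 ± 314 CPM per kb) and Cd79b (1369 ± 200.2) led, with ranges that overlapped, followed by Cd37 (577), Cd22 (382), Ms4a1 (206), Siglecg (162), Cd72 (145), Ptprc (93.4) and Cd81 (42.7). Cd37 and Cd22 did not overlap, and Siglecg and Cd72 did. In GC cells Ms4a1 (327 ± 32.0) came next after the signalling chains, beside Cd37 (308 ± 11.2), with ranges that overlapped. In the activated groups Cd79b (829 with CD40, 860 with CpG and 873 with LPS) was above Cd79a (701, 701 and 663) in its mean but not beyond the spread, and Cd81 (97.5, 94.0 and 93.6) stood after Cd22 (156, 156 and 159.7). The exonic length counts every annotated transcript of a gene, so a gene with unused exons, such as Ptprc with 18313 exonic bases in 13 transcripts, may be placed too low by this scale.

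Beyond the 9 genes, some other surface coreceptors and inhibitory receptors fell as well, and the rest did not pass the test. Of 19 such genes, 18 could be tested, and 9 fell and none rose in GC, while 11 fell and none rose with each stimulus (medians -1.22, -2.11, -2.02 and -2.06 log2). Among all genes 16.5% fell in GC and 14.3%, 14% and 14.2% with CD40, CpG and LPS. Pirb, an inhibitory receptor for MHC class I, fell from 26.5, 23.3 and 96.1 CPM in naive libraries to 1.21 to 2.77 CPM in GC (-4.65 log2, adjusted p = 0.00179), with changes of -4.46, -5.26 and -5.28 log2 for CD40, CpG and LPS. Fcrl1, an Fc receptor-like protein of B cells, fell in the activated groups (-5.72, -5.65 and -5.80 log2), and its value of -0.99 in GC did not pass (adjusted p = 0.0757). Its relative Fcrl5 fell in GC (-5.46 log2, adjusted p = 0.0145) and did not pass in the activated groups.

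Of 25 genes of proximal receptor signalling, 1 rose and 5 fell in GC. In culture 17, 15 and 16 fell with CD40, CpG and LPS, and 0, 0 and 1 rose (medians -0.83, -0.78 and -0.82 log2, and -0.18 in GC). Beside these counts, 34.5% of all genes were called in GC and 34.1%, 33.6% and 33.7% in culture. Blk, a Src-family kinase of B cells, measured 571, 631 and 639 CPM in naive libraries, 295, 316 and 300.1 CPM in GC and 37.4 to 104 CPM in the activated libraries. Its changes were -1.01 log2 in GC (adjusted p = 0.0411) and -3.21, -3.16 and -3.31 log2 in culture (adjusted p = 2.59e-05, 3e-05 and 2.07e-05). Bank1, an adaptor of the receptor, changed by -2.20 log2 in GC and by -3.20, -3.03 and -3.18 log2 in culture. Dok3, an inhibitory adaptor, and Cblb, a ubiquitin ligase that restrains the receptor, fell in culture (-3.24, -3.11 and -3.43 log2, and -3.96, -3.92 and -3.80 log2) and did not pass in GC.

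Among 13 transcription factors of the B lineage, which set the expression of receptor genes such as Cd79a, 3 rose and 3 fell in GC, while 2 rose and 11, 10 and 11 fell with CD40, CpG and LPS. In GC 2 rose and 1 fell without GC library A or without GC library B. With CD40 2 rose and 6 fell when only the 6 libraries compared were fitted, and with CpG 2 rose and 5 fell without the 3 activated libraries of letter C. In the main fit 34.5% of all genes were called in GC and 34.1%, 33.6% and 33.7% with CD40, CpG and LPS. Ebf1 measured 337, 304 and 277 CPM in naive libraries, 168, 131 and 173 CPM in GC and 47.8 to 71.3 CPM in the activated libraries (-0.96, -2.46, -2.34 and -2.39 log2; adjusted p = 5e-04, 1.68e-07, 2.77e-07 and 2.17e-07). Pax5, the factor that keeps B cell identity, fell in all 4 comparisons (-0.70, -2.17, -2.18 and -2.21 log2), and so did Ets1 (-0.86, -2.55, -2.37 and -2.62 log2). Pou2af1, the coactivator of octamer factors, rose instead, from 580, 522 and 688 CPM in naive libraries to 2543 to 2879 CPM in GC (2.16 log2, adjusted p = 1.4e-05) and 1369 to 2478 CPM in culture (1.67, 1.70 and 1.62 log2). These levels of factor RNA stand beside the promoter sequences of Cd79a, Cd22 and Cd72 as a description, and binding was not measured.

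Over the 15 libraries, each of 5556 genes with a mean log2 CPM of 5 or more was set against each of the 9 by Pearson's r of log2 CPM, as a description, since the libraries share groups. Ptprc was most like Akap13 (r = 0.99), Ssh2 and Btk, the last a kinase of the receptor pathway. Siglecg was most like Mapk11 (0.99), Hip1r and Rhobtb2, and Cd79a was most like Elf2 (0.98), Mapk14 and Ythdc1. Cd22 was nearest to Fbxl5 (0.98), Cd72 to Ulk3 (0.98), Cd37 to Arrdc1 (0.98), Cd81 to Lta4h (0.98) and Ms4a1 to Srsf6 (0.98). Cd79b had the weakest match, with Lsp1 (0.94) and Ulk3 (0.94). Within the set, Siglecg and Ptprc were the closest pair (r = 0.97), followed by Cd72 and Cd37 (0.96) and Cd79b and Cd72 (0.96), and Cd81 had a negative r with each of the other 8 (-0.54 to -0.90). Among the 9 activated libraries alone the order changed: Cd81 had an r of 0.96 with Cd72, 0.95 with Cd79b and 0.94 with Cd37, and Ms4a1 an r of -0.85 to -0.90 with Cd72, Cd81, Cd37 and Cd79b. The 9 libraries fall into 3 letters, so these values rest on 3 levels.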

How the data were processed

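RNA from the 15 libraries was poly(A)-selected and made into libraries with a directional kit, per the labels' protocols. Per the submitters' processing notes, alignment used STAR 2.7.10a on mm10/GRCm38, and the authors obtained counts per gene with featureCounts 2.0.6. The deposited counts are whole numbers. Strand setting, handling of reads with several places and annotation release are not given in the sources used here. Between 73.5% and 83.5% of the values from 1 to 20 in a library were even. Whether both reads of a pair were counted was not settled: if so, fragments number fewer than counts. The level of 3 counts used for Ighe and Hnrnpll would then rest on fewer fragments.

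GENCODE M21 (GRCm38) named 54809 of the 54838 gene IDs, and the other 29 held at most 0.00872% of a library. The 9 members and the other lists, which include markers of plasma, T, NK, myeloid, dendritic, neutrophil, erythroid and megakaryocyte cells, were chosen with earlier results of these data known. Counts were fitted with edgeR 4.0.16 (R 4.3.3; filterByExpr, TMM, robust quasi-likelihood) over all 15 libraries with a mean per group, and adjusted by the Benjamini-Hochberg method at 0.05 over the 17144 genes kept. The letter was tested in the 9 activated libraries with stimulus as a term. CPM values use TMM-scaled totals. Named genes were all members and were otherwise drawn, list by list, from up to 4 with the largest change among those called in GC or in all 3 activated groups against naive, plus the immunoglobulin chains and St6gal1. Marker lists are given mainly as sums, and Prdm1 and the defining T cell genes were chosen after their values were seen. A gene of the rule is not reported here. On simulated counts, with 100 genes changed at each fold, the GC fit recovered 10% of genes changed 2-fold and 51% of those changed 4-fold (16454 genes). The letter fit recovered 56% and 65% (15814 genes). Unchanged genes called falsely numbered 1 in the GC fit and 16 in the letter fit. The pairing by letter was checked: same-letter libraries deviated together among activated groups (r of 0.36 or more in 9 pairs) and not otherwise (-0.07 to 0.08 in 21 pairs). Alternatives were DESeq2 1.42.0, other scalings, no filter, the groups compared alone, a block by letter, and libraries left out.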

Additional observations from a re-analysis of the deposited data

How the results depend on the processing

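Over the alternatives tried, 5 to 7 of the 9 genes were called in GC against naive, 7 to 9 with CD40 or CpG and 6 to 9 with LPS against naive, and 4 to 7, 3 to 6 and 4 to 6 with CD40, CpG and LPS against GC. In CpG against GC the count fell from 6 to 3 with no filter on low counts and to 3 without the activated libraries of letter A. Between letters it fell from 9 to 5 without letter B, a fit of 6 libraries. The stimulus test called none of the 9 in any alternative. Cd22 in LPS against GC turned to 0.029 log2 with no filter. With 1 library left out its differences from GC ran from -0.219 to 0.082 (CD40), -0.210 to 0.091 (CpG) and -0.182 to 0.119 log2 (LPS), the upper ends without GC replicate C, and none passed the test. Leaving out 1 library gave 5 to 6 calls for GC, 8 to 9 for each stimulus against naive, 4 to 6 for each against GC and 7 to 9 between letters. For these comparisons the replicate block by letter was fitted over all 15 libraries, naive and GC included. Same-letter libraries deviated together only among the activated groups, so the pairing of the others has no ground in the data. This fit called 5 in GC and 9 with each stimulus against naive, and 7, 6 and 6 against GC. Against GC, Cd72 passed in it with CD40 (-2.03, adjusted p = 0.00535) and LPS (-1.88, adjusted p = 0.00827), and Cd79b with CD40 (-0.43, adjusted p = 0.0441). Over all genes, fitting only the groups compared lowered the calls from 5849 to 3005 (CD40), 5768 to 3137 (CpG) and 5779 to 3349 (LPS) against naive, and raised them from 4865 to 6519, 4958 to 6836 and 4809 to 6880 against GC. The cause was not tested. Between letters, calls over all genes went from 6919 to 3205 without letter B. CpG against GC went from 4958 to 3305 without letter A. Each member had 765 counts or more in each library. The part of the fewer genes detected in naive libraries A and B was not tested. Having 3 libraries a group did limit the ratios, whose p could not go below 0.1.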
